A study of Mus musculus with 6 samples.

Results

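The genes described here encode the proteins of the cytosolic ribosome, 82 genes out of the 56689 identifiers listed for each RNA library, of which 49 belong to the large (60S) and 33 to the small (40S) subunit. They were taken as protein-coding genes by symbol (Rpl or Rps followed by a number and at most a short suffix, with Rplp0, Rplp1, Rplp2, Rpsa and Fau), without Rpl10l and Rpl39l, and no measured value entered that choice. The libraries came from mouse embryonic stem cells of strain C57BL/6. In 3 of them the genotype was wild type (WT) and in 3 it was Max-/- (Max-KO), and neither age, sex, clone number nor any treatment is given in the labels. Max is the protein with which Myc proteins pair to bind DNA, and the comparison asks how transcript levels differ when it is missing. Levels are FPKM, read fragments divided by the length of the transcript and the size of the library, so each value is a share of its own library, and fewer copies per cell cannot be told apart from more RNA of other genes.

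A ribosome is built from ribosomal RNA and about one copy of each ribosomal protein, and cells make the proteins in matched amounts and destroy those left unassembled. In mammals their mRNAs begin with a run of pyrimidines, the 5′ terminal oligopyrimidine (TOP) tract, through which mTOR signalling and Larp1 set their translation. The introns of many of the genes hold small nucleolar RNAs, which guide modifications of ribosomal RNA. Ribosomal protein mRNAs have also been copied back into the genome many times as processed pseudogenes, so a read from one can match several places. Genes for ribosomes are among the classic targets of Myc, which with Max binds the E-box CACGTG.

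Of 82 members, 79 were lower in Max-KO, only Rpl7l1 was higher, and Rpl5 and Rpl3l were not called (limma on log2(FPKM + 1); a call needs an adjusted p under 0.05, by Benjamini-Hochberg over the whole table). In the same fit 66.2% of all 14661 genes tested were called, 23.2% lower and 43.0% higher. All 82 members passed the filter on low values, a group mean of 1 FPKM or more in either genotype. The median log2 difference of the members, Max-KO minus WT, was −0.67 (interquartile range −0.89 to −0.54), and the median member stood at 62.6% of its WT level. Over all genes tested the median log2 difference was 0.21, so the members' median lay 0.88 below it. Under quantile normalization, which gives every library the same distribution of values, 43 members were called lower and 10 higher, where 33.0% and 28.8% of all genes were called, and the members' median was −0.14. Under median-ratio scaling, which sets the typical gene to equal levels, 79 were lower and 0 higher, beside 31.6% and 33.4% of all genes. In all 3 Max-KO libraries 79 members were below all 3 WT libraries and 2 were above them, while 25.7% of all genes lay below and 46.3% above in that way. The genes below the WT libraries were the 79 called lower.

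**Figure D1:**
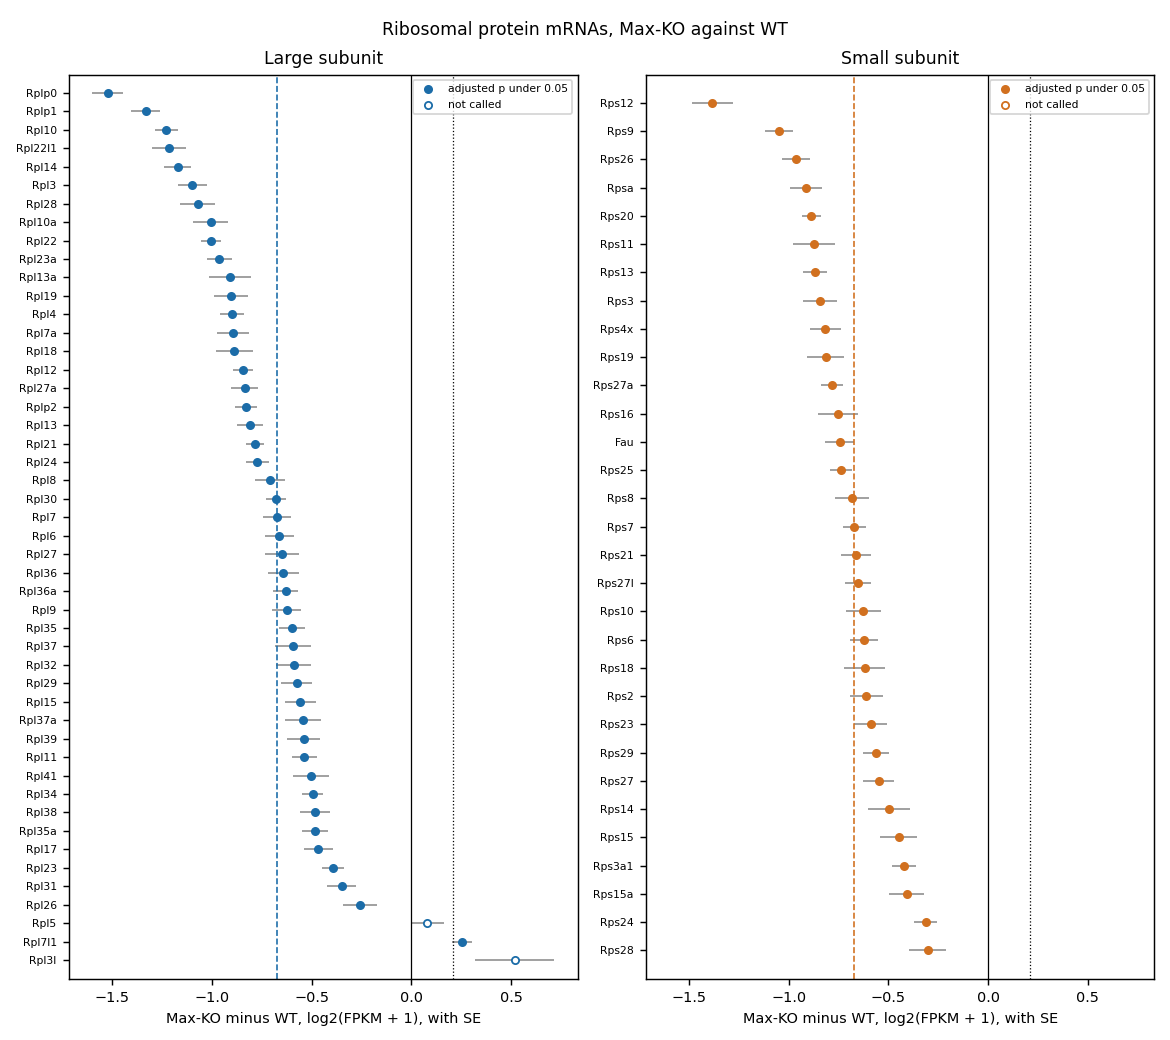
Log2 difference of each ribosomal protein mRNA, Max-KO minus WT, of log2(FPKM + 1), with its standard error, for large and small subunit genes, a few of which are not drawn. Filled points were called at an adjusted p under 0.05, the dashed line is the median of the whole subunit, and the dotted line is the median of all genes tested (0.21). In the values as deposited, nearly every gene lies left of 0 and is filled (79 of all 82 were called lower), against 43 called lower and 10 called higher under quantile normalization.

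The targeted gene, Max (minus strand of GRCm38 chromosome 12, 76937269 to 76962201; ENSMUSG00000059436), stood at 41.6, 50.2 and 42.3 FPKM in WT and at 35.8, 39.6 and 43.4 in Max-KO. The groups overlapped, and since the sources used here do not say which part of the gene was removed, its total level does not check the genotype. Summed FPKM per library ran from 743406 to 774406 in WT and from 645169 to 658361 in Max-KO. Of the 7 stem cell markers 5 were called higher in Max-KO and none lower, where 43.0% of all genes tested were called higher and 23.2% lower (shares that apply to each marker list here), with a summed level of 3840 to 4426 FPKM in WT and 5642 to 6172 in Max-KO. The 4 germ cell markers (Dazl, Ddx4, Sycp3, Stra8) summed to 20.97 to 27.83 FPKM in WT and to 739 to 768 in Max-KO, all 4 called higher. Markers of fibroblasts (7.73 to 8.14 FPKM in WT, 8.73 to 11.1 in Max-KO; 2 of 3 tested higher, 7 in the list), primitive endoderm (1.63 to 1.87 and 4.16 to 8.27; 3 of 3 tested higher, 5 in the list) and trophoblast (3.45 to 4.19 and 10.57 to 14.96; 4 of 4 tested higher, 5 in the list) stayed low. The 4 neural markers summed to 121 to 142 FPKM in WT and 64.4 to 68.0 in Max-KO, with all 3 tested called lower. The other one, Sox1, was below the filter, at 0.16, 0.17 and 0.18 FPKM in WT and 0.75, 0.46 and 0.53 in Max-KO. No marker of these lists was at 0 in all libraries, and their part in the results below was not tested.

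Because several of the lowest levels below belong to genes with an identical second copy, the first 60 coding bases of 3 such members are shown, with the start codon in capitals. Each was read from the GENCODE M21 transcripts of GRCm38, and the whole coding sequence of the member occurs without a mismatch in the transcript of the copy named beside it.
Rpl5 and Gm15500: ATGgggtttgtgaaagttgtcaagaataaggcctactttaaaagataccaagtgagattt
Rpl12 and Gm10275: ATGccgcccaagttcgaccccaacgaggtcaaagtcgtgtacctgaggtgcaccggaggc
Rps12 and Rps12-ps3: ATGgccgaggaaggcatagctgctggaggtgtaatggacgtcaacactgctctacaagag
The match covered 894 of 894 bases for Rpl5, 498 of 498 for Rpl12 and 399 of 399 for Rps12.

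E-boxes are shown for the 6 members that had one in a RefSeq promoter (GRCm38.p6, from 250 bases before to 50 after the start site), since the E-box is the site that Max binds with its partners. The capitals mark CACGTG, which reads the same on both strands, and each stretch is 30 bases on the strand of the gene.
Rpl13a, chr7:45128928-45128957, minus strand: cgctccgaaaccCACGTGacatcccgcccc
Rpl14, chr9:120571337-120571366, plus strand: ccaagctcactgCACGTGtctgaggagaag
Rpl19, chr11:98026679-98026708, plus strand: tacccagaggacCACGTGaccaaacgccct
Rpl23, chr11:97782425-97782454, minus strand: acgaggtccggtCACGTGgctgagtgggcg
Rpl34, chr3:130730536-130730565, minus strand: cacctaacttctCACGTGacgttcctaccg
Rps19, chr7:24884781-24884810, plus strand: tggagccgcggcCACGTGcgagcggcaggc
The motif began 19 bases before the start site in Rpl19, 3 before it in Rpl23 and between 120 and 216 before it in the other four.

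The large and the small subunit differed little in their typical member and more in their sums. Among large subunit genes 46 of 49 were lower, with a median log2 difference of −0.67 and a range from −1.52 to 0.52. All 33 small subunit genes were lower, also with a median of −0.67, and their range was −1.38 to −0.30. The mean log2 level of the large subunit less that of the small was −0.40, −0.41 and −0.44 in the WT libraries and −0.41, −0.42 and −0.43 in the Max-KO libraries. By that measure the genotypes overlapped. The mean of the large subunit includes Rpl3l, Rpl5 and Rpl7l1, its only genes not called lower, with log2 differences of 0.52, 0.08 and 0.25. Whether the overlap depends on these genes was not tested. The summed FPKM of the large subunit over that of the small was 1.45, 1.45 and 1.44 in WT and 1.32, 1.33 and 1.32 in Max-KO, so by this measure every Max-KO library was lower. Sums weigh the most abundant mRNAs most. Without the 3 large subunit mRNAs of highest WT level, copies not counted (Rplp1, Rpl13a and Rpl23a), the ratio was 1.18, 1.17 and 1.17 in WT and 1.13, 1.12 and 1.11 in Max-KO, a smaller gap without overlap. These ratios are descriptions with no test.

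Ribosomal protein mRNAs took 19.8, 19.6 and 21.9% of all summed FPKM in the WT libraries and 14.2, 14.2 and 14.9% in the Max-KO libraries (mean 20.4 ± 1.24% and 14.4 ± 0.42%, SD, n = 3). WT replicate 3 was the highest of the 6, the WT mean without it was 19.7%, and the groups did not overlap. The large subunit took 11.6 to 12.9% in WT and 8.10 to 8.50% in Max-KO, and the small subunit 8.01 to 8.96% and 6.09 to 6.42%. Against the WT mean, the members' summed FPKM in the Max-KO libraries was 59.3, 59.8 and 63.6%. The members' drop equalled 58.0% of the net drop in summed FPKM between the group means, in which genes that rose offset part of the losses. Rplp1, Rpl13a and Rpl23a made up 15.02% of the members' drop. Among the 100 most abundant genes of a library, 53 or 54 were members in WT and 48 to 50 in Max-KO.

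**Figure D2:**
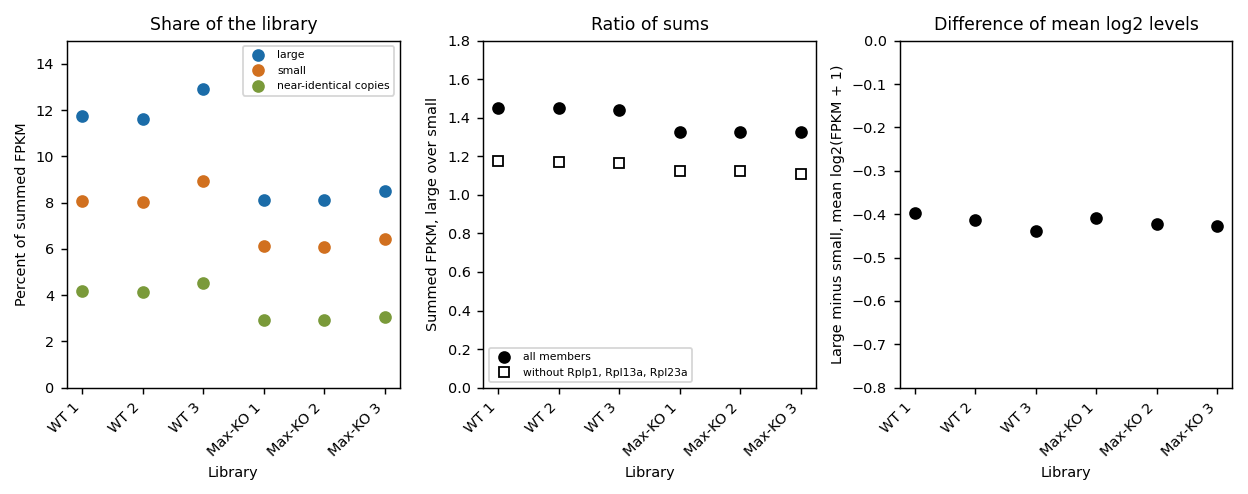
Ribosomal protein mRNAs in each library: percent of summed FPKM held by large subunit, small subunit and near-identical gene copies (left), summed FPKM of large over small subunit genes (middle), and the mean log2(FPKM + 1) of the large less that of the small subunit (right). In the left and middle plots the Max-KO libraries lie below the WT libraries, whereas on the right the 6 values lie between −0.44 and −0.40 with the groups mixed. The right plot includes Rpl3l, Rpl5 and Rpl7l1, the large subunit genes that were not called lower.

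Abundant mRNAs as a class also stood lower, though by less. The 104 other genes whose mean reached 500 FPKM, members and their copies left out, had a median log2 difference of −0.45 (interquartile range −0.74 to 0.01), and this level was chosen after the values were seen. Their spread was also wider, with an SD of 0.69 over genes against 0.33 over the members. At least 2-fold lower were 13 of the 82 members (10 large, 3 small), 16 of these 104 genes (15.4%), and 5.3% of all genes tested. By this count the share among the members was close to that among the 104 genes. Within the members, the WT level was hardly related to the log2 difference (Spearman's rho 0.02 across 82 genes of the same libraries).

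**Figure D3:**
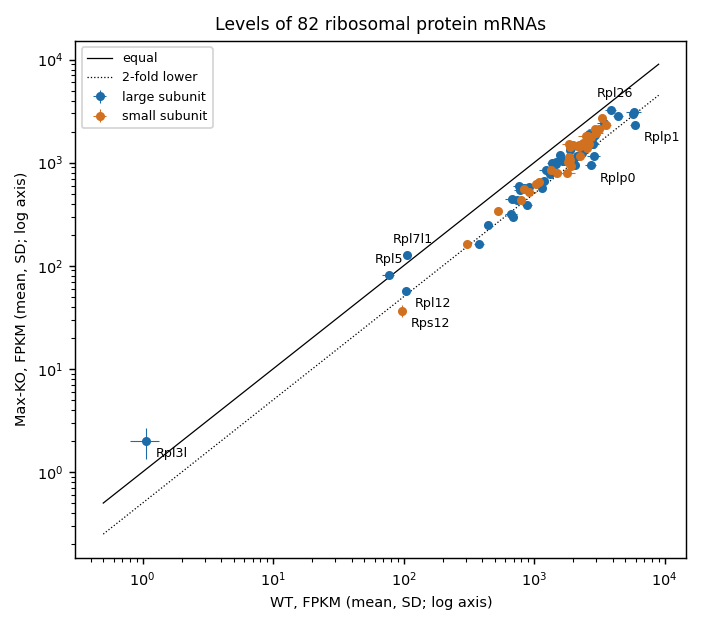
Mean FPKM of each ribosomal protein mRNA in Max-KO against WT, on log axes, with bars of 1 SD over 3 libraries. The solid line marks equal levels and the dotted line a 2-fold lower level. Most genes lie between the lines, and Rpl5, Rpl7l1 and Rpl3l lie above the solid one. Rplp0, Rplp1 and Rps12 are among the genes below the dotted line. Positions rest on FPKM as deposited, and under quantile normalization 10 of the genes were called higher.

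The P stalk, the flexible arm of the large subunit that recruits the GTPases of translation, was lower in all 4 of its genes, with a median log2 difference of −1.09. Rplp0, the scaffold on which the stalk is built (chromosome 5, 115559467 to 115563727, plus strand), read 2547, 2581 and 3007 FPKM in WT and 919, 945 and 956 in Max-KO. Every WT library lay far above every Max-KO library. Its log2 difference of −1.52 ± 0.08 (SE) was the lowest of all members (limma, adjusted p = 7.74e-06). Rplp1, which forms the tip of the stalk as a dimer with Rplp2, was the member with the highest WT level, at 5538, 5746 and 6404 FPKM in WT and 2255, 2313 and 2448 in Max-KO. Its log2 difference was −1.33 ± 0.07. The partner Rplp2 differed less, from 1182 ± 55.7 to 664 ± 15.6 FPKM (SD, n = 3; log2 difference −0.83 ± 0.06). Rplp1 thus stood at 39.7% of WT and Rplp2 at 56.2%. Rpl12, at the base of the stalk, fell from 104 ± 2.80 to 57.4 ± 1.79 FPKM, a level far under that of the other stalk genes, and it is one of the genes with an identical copy.

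Near the peptidyl transferase centre, where peptide bonds form, both members were lower, with a median log2 difference of −1.16. Rpl3, which reaches towards the centre, fell from 2047 ± 169 to 954 ± 33.9 FPKM (log2 difference −1.10 ± 0.07). Rpl10, one of the last proteins to join the 60S particle, read 725, 646 and 711 FPKM in WT and 295, 297 and 294 in Max-KO (−1.23 ± 0.06; limma, adjusted p = 6.96e-06). Its Max-KO values lay close together and far below every WT value. Rpl10a, the protein of the L1 stalk that moves spent tRNA out, fell from 1939 ± 202 to 963 ± 56.2 FPKM (−1.01 ± 0.09).

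Proteins that line the exit tunnel, through which the new chain leaves, differed less as a group. All 8 were lower, with a median log2 difference of −0.57. Rpl23a, at the tunnel mouth where the signal recognition particle docks, fell from 5736 ± 173 to 2947 ± 181 FPKM (−0.96 ± 0.06), and Rpl19 (−0.90) and Rpl4 (−0.90) differed by nearly as much. Rpl35 (−0.60), Rpl39 (−0.54) and Rpl17 (−0.47) stood between these and the 2 genes with the smallest drop. Rpl31 read 725, 719 and 835 FPKM in WT and 602, 568 and 614 in Max-KO (−0.35 ± 0.07). It was not called on the TPM scale (−0.12; limma, adjusted p = 0.112) and was called higher under quantile normalization (0.15; limma, adjusted p = 0.0403). Rpl26 was listed at 3639, 3666 and 4324 FPKM in WT and at 3121, 3134 and 3442 in Max-KO. The groups of Rpl26 did not overlap, yet its log2 difference was only −0.26 ± 0.09 and its limma adjusted p was 0.0309. This call did not hold without Max-KO replicate 1 (limma, adjusted p = 0.0967), without Max-KO replicate 2 (0.103) and on the TPM scale (0.723). Under quantile normalization Rpl26 was called higher (log2 difference 0.38; limma, adjusted p = 7.48e-04).

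Other large subunit genes with low values included Rpl22l1, a paralog of Rpl22, which fell from 379 ± 34.5 to 163 ± 12.2 FPKM (−1.21 ± 0.08). Rpl14 (−1.17), Rpl28 (−1.07) and Rpl22 (−1.004) also stood at 1 or more below WT on the log2 scale. At the other end, Rpl23 fell from 1570.0 ± 43.7 to 1196 ± 44.0 FPKM (−0.39 ± 0.05). Rpl13a, which has been studied for its role outside the ribosome in inflammation, fell from 5831 ± 728 to 3095 ± 277 FPKM (−0.91 ± 0.11) and was, with Rplp1 and Rpl23a, among the 3 large subunit mRNAs of highest WT level, copies not counted.

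In the small subunit, the 4 proteins listed at the mRNA exit had a median log2 difference of −0.94. The 5 listed at the mRNA entry and decoding site had −0.61, and the ranges of the lists overlapped. At the exit, Rps26, which contacts mRNA upstream of the start codon, fell from 2259 ± 87.3 to 1159 ± 85.8 FPKM (−0.96 ± 0.07), and Rpsa, which is also known as the laminin receptor, from 1501 ± 146 to 795 ± 29.6 FPKM (−0.91 ± 0.08). Rps28, also at the exit, had the smallest difference of the subunit as listed, from 1866 ± 226 to 1506 ± 78.4 FPKM (−0.30 ± 0.09; limma, adjusted p = 0.0231). Rps28 was no longer called without Max-KO replicate 1 (limma, adjusted p = 0.0755), without Max-KO replicate 2 (0.0754) and on the TPM scale (0.415). Under quantile normalization it was called higher (0.29). Copies held 60.6% of its joint WT level, and with them summed it was called lower at −0.41 (limma, adjusted p = 1.29e-03), so that Rps24 (−0.31) had the smallest difference.

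All 5 genes of the entry and decoding site were lower. Rps2, the small subunit mRNA of highest WT level when copies are not counted, fell from 3542 ± 359 to 2312 ± 80.1 FPKM (−0.61 ± 0.08), and Rps3, which helps to unwind mRNA at the entry, fell by 0.84 on the log2 scale. Rps23, which affects decoding accuracy, differed by −0.59 and Rps15 by −0.45. Fau, made as a fusion with a ubiquitin-like protein and cut to give Rps30, differed by −0.74 (1082 ± 98.9 to 643 ± 13.2 FPKM). Rps27a, which is made as a fusion with ubiquitin, differed by −0.78. Rps6, the target of S6 kinase, read 2610.0, 2611 and 2899 FPKM in WT and 1698, 1715 and 1861 in Max-KO (−0.62 ± 0.07), close to the median member. Rps9, beside the entry channel but not among the 5 genes listed for it, stood lower (−1.05 ± 0.07).

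Small differences were seen in Rps24, Rps15a, Rps3a1 and Rps15, with log2 differences from −0.45 to −0.31. Without their copies, Rps24 and Rps27 followed Rps2 in WT level among small subunit mRNAs. With copies summed, Rps12 (5709 FPKM) and Rps28 (4732) stood above Rps2 (3558). Rps24 read 3294, 3348 and 3364 FPKM in WT and 2564, 2679 and 2819.6 in Max-KO (−0.31 ± 0.06; limma, adjusted p = 2.41e-03), and Rps27 fell from 3128 ± 300.4 to 2133 ± 64.0 FPKM (−0.55 ± 0.08). Rps24 and Rps15a were not called after rescaling to TPM (limma, adjusted p = 0.144 and 0.062). Under quantile normalization Rps24, Rps15a and Rps3a1 were called higher (0.18, 0.18 and 0.17).

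Rps12, on the beak of the 40S subunit (chromosome 10, 23785183 to 23787275, minus strand), had the lowest log2 difference of the small subunit, −1.38 ± 0.10 (limma, adjusted p = 4.11e-05). Its values were 99.2, 101 and 89.7 FPKM in WT and 35.4, 32.2 and 42.3 in Max-KO. They were low beside the median small subunit gene, whose WT mean was 1882 FPKM. Rps12-ps3 (chromosome 19, 59322290 to 59322783, plus strand), annotated as protein-coding, carries the identical coding sequence shown above and read 5240, 5471 and 6093 FPKM in WT and 2704, 2731 and 2930 in Max-KO (−1.004 ± 0.07). With Rps12 and its copies summed, the level was 5709 FPKM in WT and 2841 in Max-KO and the log2 difference was −1.01 ± 0.07. Rps12 was then no longer the lowest of its subunit, since Rps9 with its copy stood at −1.05. The sources used here do not say how reads matching several copies were counted, so the levels of these members are uncertain one by one.

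Rpl5 and Rpl11 carry 5S ribosomal RNA into the large subunit, and the same particle can bind Mdm2 and so stabilise p53. Rpl11 fell from 1459 ± 104 to 1005 ± 1.90 FPKM (−0.54 ± 0.06; limma, adjusted p = 3.17e-04). For Rpl5 (chromosome 5, 107900502 to 107909005, plus strand) the values were 82.8, 80.2 and 67.7 FPKM in WT and 82.1, 78.5 and 82.6 in Max-KO. These groups overlapped, and the log2 difference was 0.08 with a 95% interval from −0.11 to 0.27 (limma, adjusted p = 0.413). On the TPM scale Rpl5 was called higher (0.31; limma, adjusted p = 0.0201), and after the GC and length correction it was called lower (−0.36; limma, adjusted p = 1.34e-03). The identical copy Gm15500 (chromosome 7, 114705217 to 114706235, minus strand), annotated as a transcribed processed pseudogene, read 1829, 1810.1 and 1956 FPKM in WT and 1119, 1143 and 1209 in Max-KO (−0.69 ± 0.06; limma, adjusted p = 7.27e-05). Summed over Rpl5 and its copies, the level fell from 1942 ± 71.8 to 1238 ± 47.8 FPKM, a log2 difference of −0.65 ± 0.06 (limma, adjusted p = 7.59e-05). The sum thus lay close to the median member, and the particle's pair was then lower in both genes.

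Rpl12 (chromosome 2, 32961559 to 32965345, plus strand) gave a like pattern of levels. Its copy Gm10275 (chromosome 10, 29698746 to 29699380, minus strand), also annotated as a transcribed processed pseudogene, read 2774 ± 197 FPKM in WT and 1840.0 ± 69.0 in Max-KO (−0.59 ± 0.07). The sum of Rpl12 and its copies fell from 2879 to 1898 FPKM, with a log2 difference of −0.60 ± 0.07 against −0.84 for Rpl12 alone. For Rpl10 the copies held 65.9% of the WT sum and the log2 difference became −1.40 ± 0.06 when they were added. Rpl10 then stood second after Rplp0 (−1.52).

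Near-identical copies were found for 77 of the 82 members by comparing each coding sequence with all annotated transcripts (at least 95% identity over at least 80% of the coding sequence), a step chosen after the values were seen. There were 570 copies, of which 555 were annotated as pseudogenes, 14 as protein-coding and 1 as a lincRNA, and 23 were identical to the member over its whole coding sequence. Of these, 70 reached a mean of 1 FPKM. In 13 members the copies were listed above the gene itself in WT, and in 20 they held at least 10% of the sum. The copies' part of the joint level of members and copies was 17.1 to 17.4% in the WT libraries and 17.0 to 17.2% in Max-KO, nearly constant. Members and copies together took 24.0, 23.8 and 26.4% of summed FPKM in WT and 17.2, 17.1 and 17.98% in Max-KO. With copies summed, 80 of 82 members were called lower, beside 23.2% of the 14581 genes then tested, and only Rpl3l was not called. Besides Rpl5, Rps12, Rpl12 and Rpl10, the members that moved by more than 0.1 on the log2 scale were Rpl37, Rps13, Rps20 and Rps28. The SD over members narrowed from 0.33 to 0.31.

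**Figure D4:**
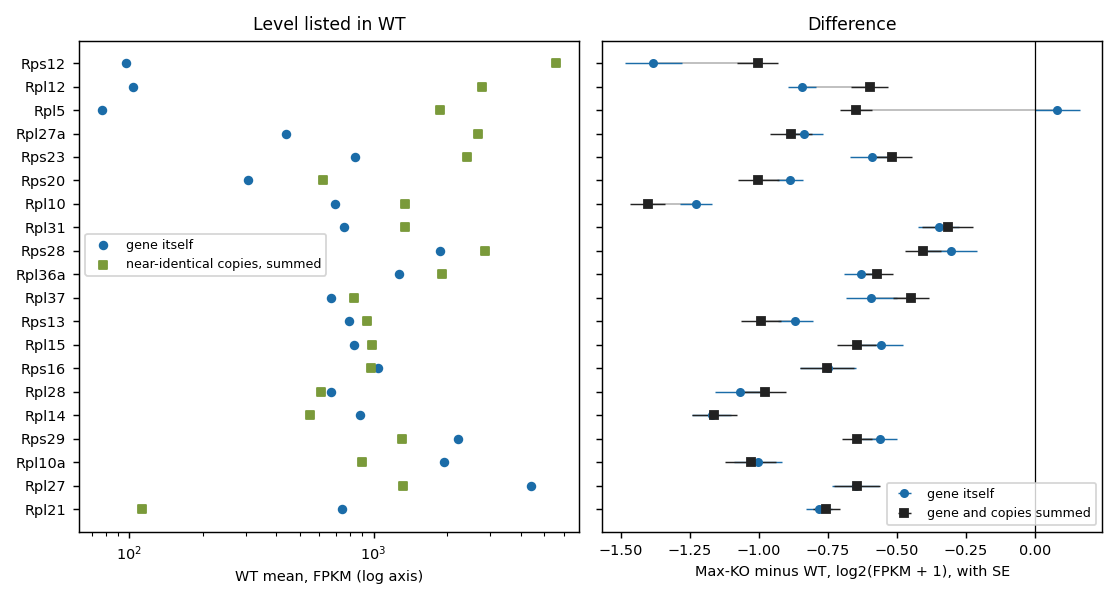
The 20 members whose near-identical copies held at least 10% of the joint WT level. Left, mean WT FPKM of the gene and of its copies summed, on a log axis; right, log2 difference (Max-KO minus WT, with SE) of the gene alone and of gene and copies summed. Rpl5 moves from 0.08 to −0.65 and Rps12 from −1.38 to −1.01, while most others change little; all values are FPKM as deposited, without quantile normalization.

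Some ribosomal protein genes have paralogs, and the paralogs did not move together. Rpl7l1, a paralog of Rpl7 with a role in ribosome assembly, read 104, 103 and 111 FPKM in WT and 125, 126 and 128 in Max-KO (log2 difference 0.25 ± 0.05; limma, adjusted p = 3.23e-03). Since Rpl7 itself fell (−0.67), Rpl7l1 went from 6.43% to 12.3% of the level of Rpl7. The call of Rpl7l1 was lost under median-ratio scaling (0.06; limma, adjusted p = 0.409) and after a GC and length correction (0.03; 0.555). Rpl3l, a paralog of Rpl3 known from heart and skeletal muscle, was near the filter, at 1.22, 0.76 and 1.23 FPKM in WT and 2.48, 1.24 and 2.28 in Max-KO. Its groups did not overlap, but it missed the threshold (0.52 ± 0.20; limma, adjusted p = 0.0536), passed it without Max-KO replicate 2 (9.71e-03), and amounted to 0.052% of Rpl3 in WT and 0.21% in Max-KO.

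Rpl22l1 stood at 35.7, 33.3 and 30.0% of Rpl22 in the WT libraries and at 26.5, 28.3 and 30.5% in Max-KO, so both fell and their ratio overlapped between groups. Rps27l, which p53 is known to induce, fell with Rps27 (530 ± 26.0 to 337 ± 19.1 FPKM, −0.65 ± 0.06), and its share of Rps27 overlapped as well, 17.0% in WT and 15.8% in Max-KO on average. Rpl36al (−0.96) fell more than Rpl36a (−0.63), from 56.3% to 44.7% of it, without overlap. Copies held 59.85% of the joint WT level of Rpl36a and are not counted in these shares. Rps4l, annotated in mouse as a transcribed processed pseudogene, went from 25.7% to 34.1% of Rps4x, with its own log2 difference at −0.41. The coding sequence of Rps27rt is identical to that of Rps27, and its values overlapped between groups, with 61.6, 80.3 and 171 FPKM in WT and 85.3, 81.2 and 112 in Max-KO (−0.04 ± 0.40, 3.24% and 4.35% of Rps27).

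Both paralogs known from the testis that the symbol rule leaves out lay far above WT. Rpl10l read 12.2, 13.4 and 12.8 FPKM in WT and 81.8, 82.4 and 85.4 in Max-KO (2.61 ± 0.06; limma, adjusted p = 6.86e-07). As a share of Rpl10 without its copies, Rpl10l went from 1.85% to 28.2%. Rpl10 and its copies summed to 2034 FPKM in WT and 767 in Max-KO, so Rpl10l was a smaller share of that sum in both genotypes. Rpl39l stood at 1.31, 3.77 and 1.81 FPKM in WT and 32.7, 35.5 and 32.6 in Max-KO, or 0.30% and 6.25% of Rpl39. The germ cell markers given above were higher in the same libraries, and their part in these values was not tested.

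**Figure D5:**
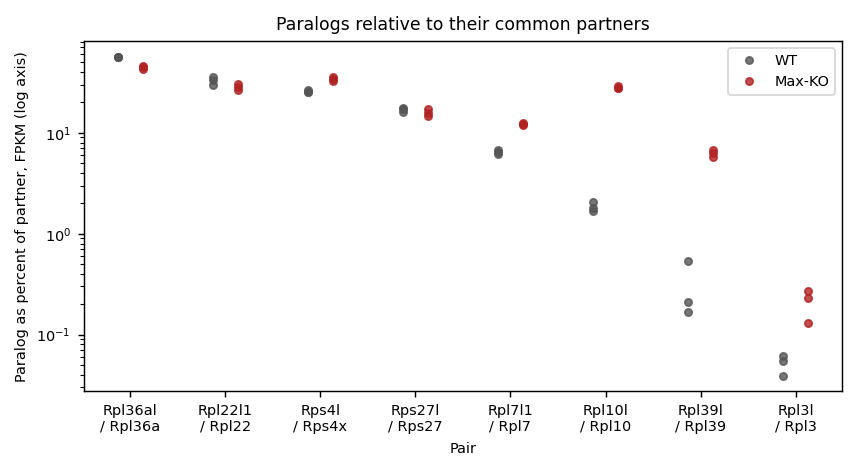
Level of each paralog as a percent of its common partner, copies of the partner not counted, in FPKM on a log axis, 1 point per library. Rpl10l, Rpl39l, Rpl7l1, Rps4l and Rpl3l lie higher in Max-KO without overlap, Rpl36al lies lower, and Rpl22l1 and Rps27l overlap; Rps4l is annotated as a pseudogene, and a ratio within a library does not change with scaling of the whole library, though quantile normalization can alter it.

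Promoters and gene structure were set beside the log2 differences as descriptions. RefSeq promoters were matched for 62 of the 82 members, 74 promoters in all. The E-box CACGTG was in 10.8% of them (6 genes), against 7.15% of all 32851 promoters and 9.98% of those of genes tested. Members with an E-box had a median log2 difference of −0.86 (range −1.17 in Rpl14 to −0.39 in Rpl23) and those without −0.65 (range −1.52 to 0.52). For Rplp0 and Rps12, the members with the lowest log2 difference of each subunit when copies are not counted, these letters were not in the window. The ETS motif CCGGAAG, searched on both strands like the others, was in 35.1% of member promoters (25 genes) against 8.86% of all and 17.3% of those of tested genes. Members with it had a median of −0.62 and those without −0.81. AAGATGG, a YY1 motif, was in 17.6%, against 6.34% of all promoters and 6.9% of those of tested genes. TATAAA was in 9.46%, below the 13.6% of all promoters but above the 7.32% of those of tested genes. None of these motifs contains another, although matches may overlap in a promoter. A start at C followed by 4 pyrimidines, the form of a TOP tract, was found at 18.9% of the members' annotated starts (14 of 74) and at 2.51% of all. For these starts the share among tested genes alone was not taken.

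The 30 members with an annotated small nucleolar RNA gene inside had a median log2 difference of −0.83, with 29 lower, and the other 52 had −0.63, with 50 lower. Rpl5 and Rps12 are in the first set. The 4 X-linked members, Rpl10 (−1.23), Rps4x (−0.82), Rpl36a (−0.63) and Rpl39 (−0.54), were all lower, with a median of −0.72 against −0.67 on the autosomes. Members with longer coding sequences tended to have more negative log2 differences (Spearman's rho −0.25 across 82 genes, −0.38 across the 79 without Rpl3l, Rpl5 and Rpl7l1), while GC content showed little relation (0.03). Such correlations run across genes of the same 6 libraries, and FPKM is itself scaled by length.

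Other genes that share the TOP tract were lower as well. Of 13 such genes that are not ribosomal proteins, all 13 were called lower, beside 23.2% of all genes tested. Their median log2 difference was −0.76. Several of them are among the 104 other genes of at least 500 FPKM, whose median was −0.45, and the part of level in their drop was not tested. Eef1d (−1.23) and Eef1b2 (−1.22), subunits of the exchange factor that reloads elongation factor 1A, and Npm1 (−1.19), a nucleolar chaperone, were lowest. Npm1 read 5282, 5282 and 4145 FPKM in WT and 2088, 2117 and 2199.9 in Max-KO. Rack1, a scaffold on the 40S subunit, was lower too (2078 ± 206 to 1229 ± 53.1 FPKM, −0.75). Rack1 and Rpl36al were among 3 lower genes of the 6 ribosomal protein genes outside the rule, of which Rpl10l and Rpl39l were higher and Rps27rt was not called. Over all genes tested 23.2% were lower and 43.0% higher.

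Genes that control TOP mRNAs were divided, with 7 of 17 called lower, 6 higher and 4 not called, where 23.2% of all genes tested were called lower and 43.0% higher. Larp1, which binds and holds TOP mRNAs, read 101, 102 and 90.9 FPKM in WT and 50.8, 47.9 and 48.0 in Max-KO (−0.99 ± 0.06; limma, adjusted p = 2.06e-05), and its relative Larp1b (−1.05) and Eif4ebp1 (−0.97), a repressor of translation initiation under mTOR, were also lower. Among those higher were Mtor (19.6 ± 1.71 to 30.1 ± 2.24 FPKM, 0.59) and Rptor (0.60), kinase and scaffold of the mTOR complex. A list of 12 chaperones and import factors of ribosomal proteins included some that also serve other proteins. Of these 12, 8 were lower and 1, Aamp, higher, beside the same shares of all genes, with a median of −0.35. The lowest were Ipo5 (−1.05) and Nap1l1 (−1.01), and Grwd1, the chaperone of Rpl3, fell from 62.1 ± 6.96 to 33.1 ± 0.57 FPKM (−0.88 ± 0.08). Of 11 genes of ribosome rescue and turnover, 7 were lower and 2 (Ltn1 and Nemf) higher, again beside 23.2% and 43.0% of all genes, with a median of −0.22. Usp10 (−1.02) and Ube2o (−0.92), which act on ubiquitin of stalled ribosomes and of unassembled proteins, were lowest among them.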

How the data were processed

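The values are FPKM as deposited by the authors, 1 per identifier and library, given to 2 decimals. Build GRCm38.p6 and the tools RSEM, HISAT2 2.1.0, FastQC and DESeq 1.26.0 were named, without roles, per the submitters' processing notes. The sources used here give neither depth nor strand, so antisense and overlapping genes cannot be told apart. The labels' protocols state Trizol extraction and a TruSeq kit. Separate cultures are not stated for the libraries of a group, so p-values may measure technical spread.

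Identifiers were matched to GENCODE M21 (55536 of 56689; 1153 assembled loci were left out). The 14661 genes whose mean reached 1 FPKM in either genotype were fitted with limma 3.58.1 in R 4.3.3 on log2(FPKM + 1), with genotype as the only factor, trend and robust moderation, 2-sided, and Benjamini-Hochberg adjustment over all of them. Log2 differences are on that scale, which understates low genes. The fit was tested on simulated data. Copies were found with BLAST 2.17.0 and Python 3.11.15. The named genes were those of the role lists, the 5 lowest and 5 highest of each subunit, the 3 most abundant of each, those not called or higher, paralogs, and up to 3 called genes with the largest difference per further list. Genes outside that rule were named after their values were seen. Some genes are not reported here. Members and lists were chosen with earlier results of these data known.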

Additional observations from a re-analysis of the deposited data

How the results depend on the processing

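Of the 49 named genes with a fit, all kept their direction and call without the filter, with a pseudocount of 0.1 FPKM, with the filter on the mean of all libraries, and without WT replicate 1, WT replicate 2 or Max-KO replicate 3. The number of members called lower was 77 to 79 with each replicate left out and moved beyond 1.5 times only under quantile normalization (43). The number called higher, 1 in the values as reported, was 3 after rescaling to TPM, 0 under median-ratio scaling, 10 under quantile normalization, 0 after the GC and length correction, and 1 to 2 with a replicate left out. The members' median of −0.67 became −0.44 after rescaling to TPM, −0.87 under median-ratio scaling, −0.14 under quantile normalization and −0.97 after the GC and length correction, which also centres each library. For the large subunit these were −0.44, −0.87, −0.13 and −0.95, and for the small −0.44, −0.87, −0.14 and −0.98. With a replicate left out the members' median ran from −0.70 to −0.61. The members' distance from all genes, −0.88, was −0.74 without a filter and −0.12 under quantile normalization, and ran from −0.92 to −0.80 with a replicate left out. Large less small subunit median, −0.0021, was 0.0345 after the GC and length correction. The members' share in Max-KO was 15.3% without mitochondrial genes, and with copies summed, an alternative chosen after seeing the data, the shares were 24.7% in WT and 17.4% in Max-KO. Under quantile normalization the sign turned in Rpl11 (0.0241), Rpl17 (0.0889), Rpl26 (0.38), Rpl31 (0.15), Rps15 (0.0316), Rps15a (0.18), Rps24 (0.18), Rps27rt (0.0312), Rps28 (0.29) and Rps3a1 (0.17). Rpl5 turned to −0.11 under median-ratio scaling, −0.36 after the GC and length correction and −0.65 with copies summed, and with a replicate left out it ran from −0.0081 (without WT replicate 3) to 0.1353. Rps27rt turned to 0.19 after rescaling to TPM, and with a replicate left out it ran from −0.3474 to 0.3832 (without WT replicate 3), above 0 also without Max-KO replicate 1 or 2. The cause was not tested. The labels do not say whether replicate numbers pair the samples. Deviations of same-numbered libraries correlated at −0.0006, 0.016 and 0.0855, and those of different-numbered libraries at −0.0823 to 0.0653. With so few libraries these values cannot decide it. With the replicate block 2 members were called higher, the second being Rpl3l. FPKM gives no depth, so counting error behind low values such as those of Rpl3l is unknown.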

Other observations

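By symbol alone, 300 identifiers carried the name of a ribosomal protein pseudogene (an Rpl or Rps symbol ending in -ps and a number), and 143 of them had a value above 0. They took 2.35 to 2.59% of summed FPKM in the WT libraries and 1.56 to 1.68% in the Max-KO libraries. Near-identical copies were not left out of this sum. Rps12-ps3, for example, is counted in both, so these shares do not add to those of members and copies. By chromosome, the 14 members on chromosome 7 had a median log2 difference of −0.86 and the 8 on chromosome 17 had −0.61.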
